A study of Homo sapiens with 31 samples.

Results

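Mitochondrial ribosomal proteins are the rows of the expression table whose gene symbol begins with MRPL (large subunit) or MRPS (small subunit) followed by a number. The rule found 76 of the 74834 rows, and 75 of them had a mean of at least 10 normalized reads over the 31 libraries and were tested among 16259 rows in all. 70 of the 76 rows stand for 1 protein-coding gene, 45 named for the large and 25 for the small subunit. 3 rows combine a member with an overlapping gene (MRPS24 // URGCP // URGCP-MRPS24, MRPS28 // TPD52 and MRPS6 // SLC5A3), 2 are pseudogenes (MRPL45P2 and MRPS31P5), and the antisense row MRPL23-AS1 was below the minimum.

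Mitochondria carry ribosomes of their own, which translate the few membrane proteins encoded by mitochondrial DNA, all of them subunits of the respiratory chain and the ATP synthase. The ribosomal RNAs come from mitochondrial DNA, but every protein of these ribosomes is encoded in the nucleus, made in the cytosol and imported. The factors that transcribe mitochondrial DNA, assemble these ribosomes and drive their translation are nuclear gene products as well.

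H460, a line established from a human lung cancer of the non-small cell type, received for 6 h either no addition (Control), the complex I inhibitor BAY87-2243 at 1 µM (B87), the cell-permeable ester dimethyl α-ketoglutarate at 5 mM (DMKG), both (B87+DMKG), Nutlin-3 at 30 µM, Rita at 50 µM, or both first agents with Nutlin-3 or with Rita. Nutlin-3 blocks the p53 binding site of MDM2, and Rita is known as a p53-binding compound that was described as keeping p53 from MDM2. Each group had 4 libraries of poly(A) RNA, other than Nutlin-3 with 3, and each library came from 2 pooled wells of this 1 line. The labels do not say whether replicates were separate cultures on separate days, so every p-value reflects only how far these libraries differed among themselves.

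The libraries held 33.4 to 82.5 M reads by the recovered whole-read totals (median 63.1 M), and B87 replicate 4 was the shallowest. The p53 target CDKN1A measured 4173 to 4669 normalized reads in Control, 80394 to 91711 with Nutlin-3 and 27938 to 30468 with Rita, all above every control. The epithelial keratin rows KRT8 and KRT18 had medians of 100807 and 68027, but that of the epithelial gene EPCAM was 51.98 (27.99 to 85). The medians of the leukocyte gene PTPRC and the endothelial gene PECAM1 were 1.556 and 0. The fibroblast markers COL1A1 and PDGFRB had medians of 686.8 and 206.8 and the monocyte gene CD14 one of 191, all above EPCAM. The share of reads from the mitochondrial chromosome was 1.49 to 2.15% in Control, 2.24 to 7.51% in B87+DMKG and 2.42 to 5.39% in Nutlin-3, and its part in the results below was not tested. Values are scaled per library with no RNA spike-in, so a change is a change relative to the other transcripts, and less RNA per cell cannot be told apart from fewer cells.

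The promoter letters of the members are shown first for the genes on which the results turn. RefSeq (GRCh38.p14) gave a window of 300 bases for 63 of the 70 single-gene members. In these windows both strands were searched for GCGCA followed by any base and GCGC, a motif of NRF1 (nuclear respiratory factor), CCGGAAGT, a core bound by ETS factors such as GABPA, and AAGATGGCG, a motif of YY1, and no match of one motif overlapped a match of another. The YY1 letters were in 11 of 63 member windows (17.5%, against 3.71% of 10240 tested genes and 1.85% of all 27305 promoters), the ETS letters in 8 (12.7%, against 8.31% and 4.44%) and the NRF1 letters in 7 (11.1%, against 11.2% and 6.28%). A match is a run of letters and was not shown to be a site. The median log2 fold change in B87+DMKG was -0.42 for the 11 members with the YY1 letters and -0.04 for the 52 without. It was -0.27 for the 7 with the NRF1 letters and -0.06 for the 56 without. For the ETS letters it was -0.08 for the 8 with and -0.12 for the 55 without. The Rita medians with and without were 0.07 and 0.17 for YY1, 0.11 and 0.14 for NRF1, and 0.107 and 0.135 for ETS. These splits were not computed over other tested genes, so whether they are particular to the members was not tested.

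The 150 bases before the start are printed 5′ to 3′ on each gene's own strand, with motif matches in capitals. MRPL51 (chr12:6493263-6493412, minus strand), MRPS22 (chr3:139343844-139343993, plus strand) and MRPS5 (chr2:95121809-95121958, minus strand) are shown because they had the 3 deepest falls when Nutlin-3 was added to B87+DMKG. The first 2 stretches carry the ETS letters on the opposite strand and the MRPS5 stretch carries no match.
MRPL51: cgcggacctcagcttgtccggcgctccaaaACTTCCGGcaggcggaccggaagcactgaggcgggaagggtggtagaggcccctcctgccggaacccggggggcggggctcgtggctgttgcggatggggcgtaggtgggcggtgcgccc
MRPS22: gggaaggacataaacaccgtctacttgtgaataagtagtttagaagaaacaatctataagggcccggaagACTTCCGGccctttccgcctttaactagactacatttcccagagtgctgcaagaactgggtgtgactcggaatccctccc
MRPS5: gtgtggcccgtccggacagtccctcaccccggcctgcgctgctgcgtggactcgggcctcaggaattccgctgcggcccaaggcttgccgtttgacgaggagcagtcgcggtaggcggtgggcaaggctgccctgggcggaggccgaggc
MRPL1 (chr4:77862680-77862829, plus strand) and MRPS23 (chr17:57850045-57850194, minus strand) are shown because, with MRPL51, they had the largest falls in B87+DMKG, and neither window holds a match.
MRPL1: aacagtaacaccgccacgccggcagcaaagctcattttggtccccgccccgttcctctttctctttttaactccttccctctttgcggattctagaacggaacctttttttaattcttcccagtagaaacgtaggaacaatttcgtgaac
MRPS23: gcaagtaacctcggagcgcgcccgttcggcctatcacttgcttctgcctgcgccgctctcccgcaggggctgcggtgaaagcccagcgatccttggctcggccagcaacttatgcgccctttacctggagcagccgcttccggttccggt
MRPL46 (chr15:88467389-88467538, minus strand) and MRPS11 (chr15:88467558-88467707, plus strand) are shown because they start back to back, 320 bases apart, and moved in opposite directions in B87+DMKG. No match lies in either stretch, and the MRPL46 window of 300 bases holds the YY1 letters outside it.
MRPL46: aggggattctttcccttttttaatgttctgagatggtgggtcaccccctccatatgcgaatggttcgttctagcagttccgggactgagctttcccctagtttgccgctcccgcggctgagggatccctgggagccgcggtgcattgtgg
MRPS11: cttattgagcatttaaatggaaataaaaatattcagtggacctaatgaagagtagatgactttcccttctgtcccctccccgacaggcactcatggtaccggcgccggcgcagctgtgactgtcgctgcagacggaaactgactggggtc
MRPL52 (chr14:22829737-22829886, plus strand) and MRPL17 (chr11:6683341-6683490, minus strand) show what the other motifs look like, with the YY1 letters in 2 places in MRPL52 and the NRF1 letters in MRPL17.
MRPL52: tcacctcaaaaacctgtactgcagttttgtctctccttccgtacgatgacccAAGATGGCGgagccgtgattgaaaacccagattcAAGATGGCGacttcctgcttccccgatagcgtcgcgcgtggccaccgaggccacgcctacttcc
MRPL17: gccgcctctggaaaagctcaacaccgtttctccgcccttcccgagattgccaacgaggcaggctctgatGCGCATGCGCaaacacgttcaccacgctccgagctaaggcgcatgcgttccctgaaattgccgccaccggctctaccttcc

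B87 alone gave no called member. None of the 75 was called by limma (adjusted p under 0.05, Benjamini-Hochberg over all 16259 rows), edgeR and DESeq2 on the recovered reads also called 0, and 2 members had an unadjusted p under 0.05. Over all rows 0.0431% were called (0.0308% higher, 0.0123% lower). Member log2 fold changes lay between -0.19 and 0.15. MRPL51 gave 7515, 7252, 7559 and 7196 normalized reads in the 4 B87 libraries and 6918, 7610.3, 6924 and 6514 in Control, and these ranges overlapped. B87 replicate 4 stood apart for some members: MRPS34 measured 9394 there and 17342 to 18433 in the other 3 libraries.

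With DMKG alone the share of members that fell (24%) was near that of all rows (21.8%), and fewer rose (4% against 19.6%). 18 of 75 fell and 3 rose, 28% of the members where 41.4% of all rows were called (21.8% lower, 19.6% higher), and the member median was -0.02 against 0.03 for all rows, a sign that turned without DMKG replicate 4 (0.03). By symbol, 10 of the falls were in rows named for the large subunit and 8 in rows named for the small subunit; the 8 include MRPS30 and MRPS18A, whose proteins sit in the large subunit. Under an equal total for every library the same comparison gave 27 falls and 2 rises, where 27.8% of all rows were lower and 12.8% higher.

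MRPL49, a protein of the large subunit, gave 4519.6, 4387, 4226 and 3929 with DMKG and 6092, 6445, 6354 and 5646 in Control. All 4 treated libraries were below all 4 controls, and the log2 fold change was -0.52 ± 0.06 (limma adjusted p = 1.3e-08), where ± is the standard error here and below. MRPL50, also of the large subunit, measured 1864, 2084, 1685 and 1618 with DMKG and 2684, 2708, 2731 and 2588 in Control, without overlap, at -0.57 ± 0.09 (limma adjusted p = 9.0e-06). MRPS31 of the small subunit had the largest fall, with 918.7, 773.2, 679.8 and 665.3 against 1139 to 1265 in Control, at -0.68 ± 0.15 (limma adjusted p = 4.0e-04). MRPS17 fell to a range of 884.1 to 1024, against 1216 to 1378 in Control, at -0.44 ± 0.13 (limma adjusted p = 0.00539). The call for MRPS17 was lost without DMKG replicates 3 and 4 (limma adjusted p = 0.0608).

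Among the 3 rises, MRPL17 of the large subunit measured 7937, 7969.5, 7841 and 6976 with DMKG and 5425, 6362, 6100.0 and 5621 in Control, all 4 above all 4, at 0.39 ± 0.08 (limma adjusted p = 2.2e-04). The combined row MRPS28 // TPD52 gave 11393, 11066, 13492 and 14708 against 8588, 8413, 9627 and 9596, at 0.48 ± 0.08 (limma adjusted p = 2.6e-05), and its reads cannot be split between the 2 genes. MRPL9 rose by a small amount, 0.16 ± 0.06 (limma adjusted p = 0.0273), with overlapping groups, and lost its call without Control replicate 1, 3 or 4 or without DMKG replicate 1 or 2.

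The DMKG libraries fell into pairs, and this touched the count. MRPL51 measured 7241, 6708, 5264 and 4694 in replicates 1 to 4, MRPL46 1574, 1293, 1091 and 989.2 and MRPS18A 3207, 3204, 2573 and 2262, with replicates 3 and 4 the lower pair each time. Without replicates 3 and 4 the falls numbered 5 and the rises 4, without replicates 1 and 2 they numbered 25 and 2, and leaving out replicate 4 alone gave 11 falls. The member median was 0.05 without replicates 3 and 4 and -0.11 without replicates 1 and 2. The labels give no batch for the pairs. MRPL49, MRPL50 and MRPS31 kept their calls in each of these fits. The B87+DMKG libraries split the same way. On whole reads, their median chi-square per row was 5.54 between replicates 1 and 2, 4.53 between 3 and 4, and 10.3 to 16.03 across. Nutlin-3 replicate 1 also stood apart, at 13.63 and 14.52 from replicates 2 and 3, which were at 3.77 from each other.

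In B87+DMKG members moved in both directions, and the share called was close to that of all rows; this group was not tested against DMKG alone. In B87+DMKG 31 of the 75 members fell and 14 rose against Control, 60% of the members where 61% of all rows were called (30.8% lower, 30.2% higher); quantile normalization made this 23 falls and 20 rises (32.1% and 28.5% of all rows). The median of the members was -0.12 and that of all rows 0.01. Among rows with a mean of at least 50 the median of all rows was -0.06. There 36.6% of all rows were lower and 29.6% higher, with 31 falls and 15 rises among the members. By symbol, rows named for the large subunit gave 18 falls and 7 rises among 46, and those named for the small subunit 13 and 7 among 29. Without B87+DMKG replicates 1 and 2 the counts were 24 and 10, and without replicates 3 and 4 they were 28 and 14.

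**Figure D1:**
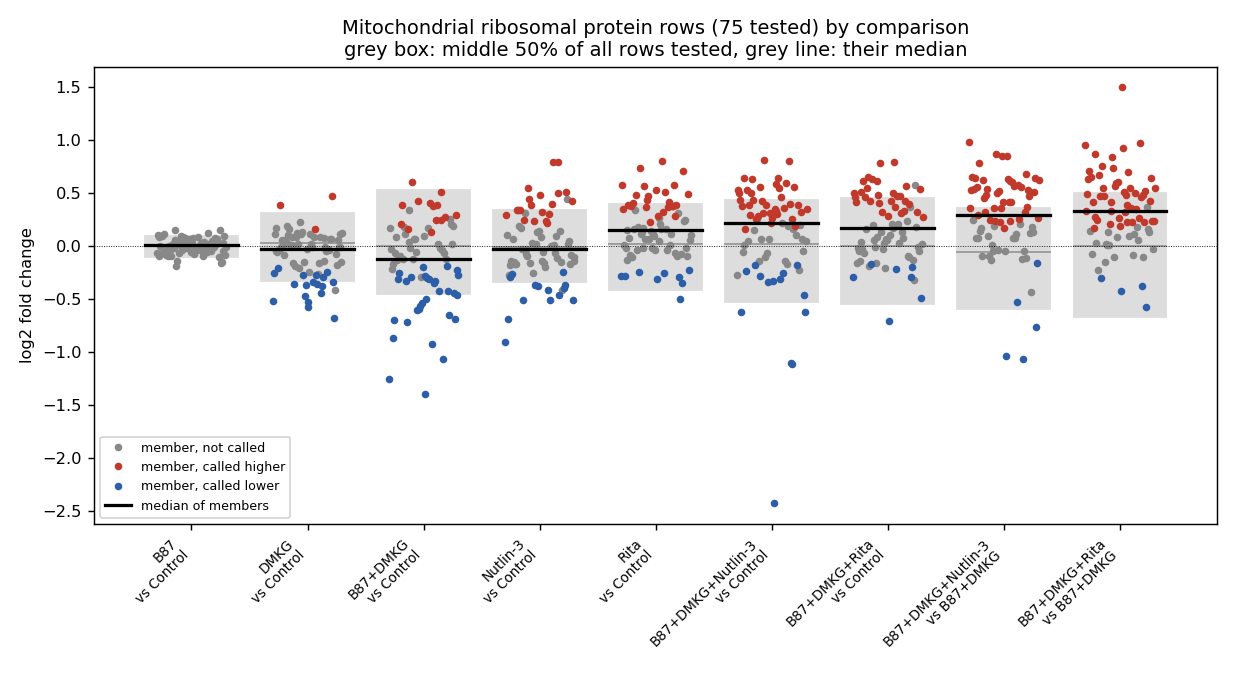
Log2 fold change (vertical axis) of the 75 tested mitochondrial ribosomal protein rows in 9 comparisons (horizontal axis). Each point is 1 row, red where called higher and blue where called lower by limma, the black line is the median of the members, and the grey box and line are the middle of all 16259 tested rows. B87 has no called member, and MRPL51 is the lowest point in B87+DMKG (-1.39) and in B87+DMKG+Nutlin-3 (-2.42).

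MRPL51, a large subunit protein whose row lies at chr12:6601318-6602471, hg19, had the largest fall. It measured 2404, 2917, 2839.6 and 2506 normalized reads in B87+DMKG and 6918, 7610.3, 6924 and 6514 in Control. All 4 combination libraries lay below all 4 controls, and the log2 fold change was -1.39 ± 0.11 (limma adjusted p = 4.1e-12).

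MRPL1 (chr4:78783805-78873944, hg19), the protein of the L1 stalk in the large subunit, gave 862.5, 869.3, 795.7 and 696.6 against 1934, 1836, 1870.2 and 2013 in Control. The groups did not overlap, at -1.25 ± 0.12 (limma adjusted p = 2.5e-10). MRPS23 (chr17:55916285-55927433, hg19), a small subunit protein, gave 2855, 3121, 3348 and 2983 against 6146, 6806, 6668 and 6166, again without overlap, at -1.07 ± 0.07 (limma adjusted p = 3.6e-13). Next in size came MRPS10 (-0.92), MRPL13 (-0.87), MRPL3 (-0.72) and MRPL15 (-0.70), so both subunits were represented among the deepest falls.

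MRPS36 has a place of its own for this treatment, because the protein is known as a subunit (KGD4) of the α-ketoglutarate dehydrogenase complex, the enzyme that consumes α-ketoglutarate in the citric acid cycle. It measured 1674, 1476, 1349.9 and 977.3 in B87+DMKG and 2108, 2183, 2213 and 2169.7 in Control, all below all, at -0.69 ± 0.12 (limma adjusted p = 6.0e-06). With DMKG alone it gave 2426, 2253, 2126 and 1850.3, a range that spanned the controls (-0.01, limma adjusted p = 0.956). MRPS30, which sits in the large subunit despite its symbol, fell with DMKG (-0.34 ± 0.06, limma adjusted p = 3.6e-05) and measured 4539, 4462, 5048 and 4804 in B87+DMKG against 7024 to 7797 in Control (-0.65 ± 0.06, limma adjusted p = 1.5e-10).

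The rises in B87+DMKG were smaller than the deepest falls. MRPL37, a large subunit protein, gave 15860.2, 16660.4, 14463 and 10940.0 against 9383, 10175, 9082 and 9068 in Control, at 0.60 ± 0.10 (limma adjusted p = 1.0e-05). The lowest of these, replicate 4, was also the combination library with the smallest mitochondrial share (2.24%), and replicate 2 with the highest MRPL37 value had the largest (7.51%). MRPS21, a small subunit protein, measured 12924, 15299, 12443 and 12251 against 9506, 10313, 9166 and 8017, at 0.52 ± 0.10 (limma adjusted p = 6.8e-05). MRPL43 measured 5849, 6984, 6632 and 6699 against 4711, 5373, 4869.5 and 4549.5, at 0.42 ± 0.07 (limma adjusted p = 4.4e-06). The groups did not overlap for any of these 3 genes.

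**Figure D2:**
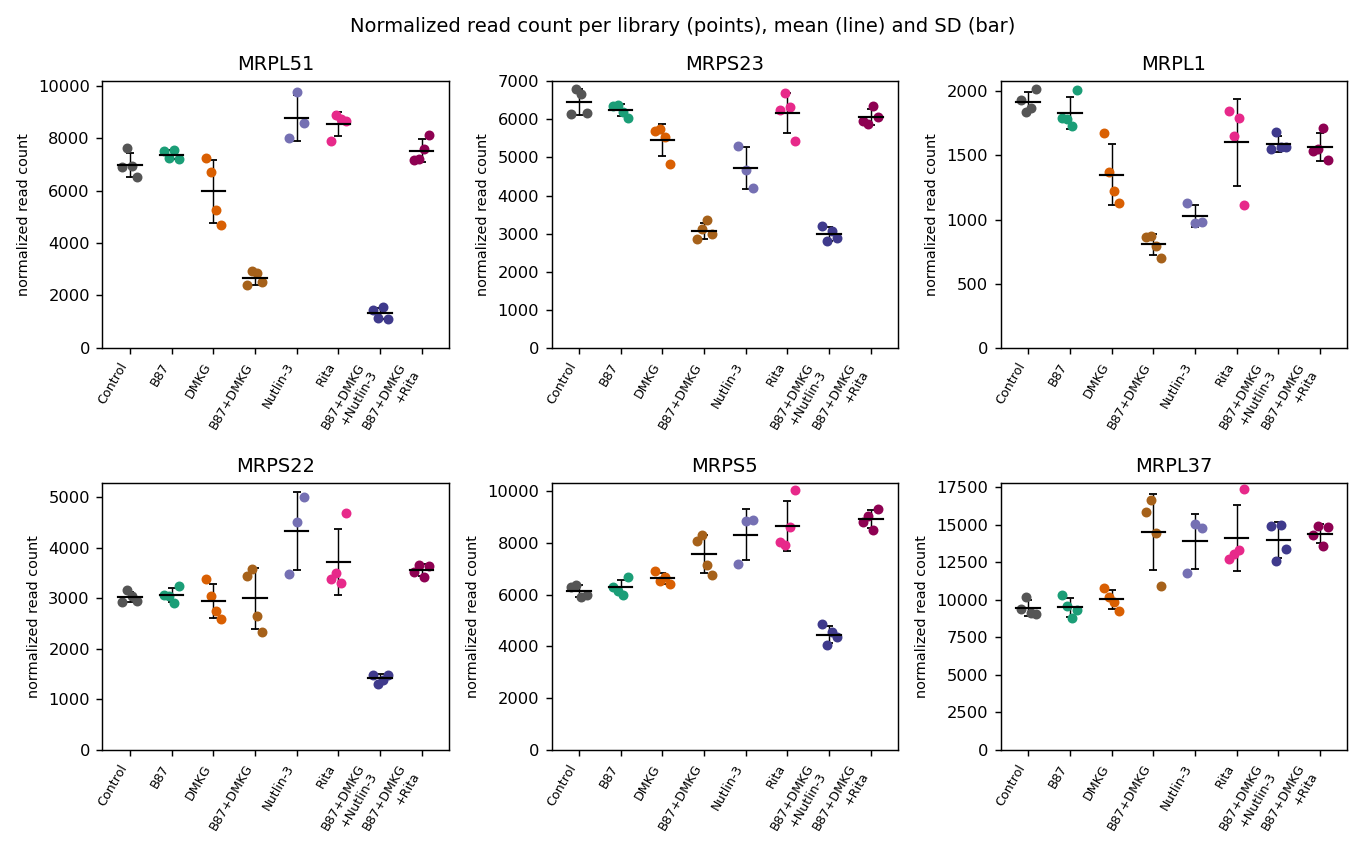
Normalized read count (vertical axis, from 0) of 6 members in each library of the 8 groups (horizontal axis), with points for libraries, a line for the mean and a bar for the standard deviation. MRPL51 lies at 2404 to 2917 in B87+DMKG, at 1103 to 1547 with Nutlin-3 added and at 7187 to 8107 with Rita added.

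The test of the combination asked whether the effect of B87 in the presence of DMKG differed from its effect without. It did for 35 of 75 members, 14 higher and 21 lower than the sum of the single effects on the log2 scale; 48.8% of all rows were called, 24.6% higher and 24.1% lower. Quantile normalization turned the split to 19 and 17 (23.2% and 24.7% of all rows), and equal totals to 20 and 16 (29.3% and 18.6% of all rows). The 14 became 9 without Control replicate 2 or DMKG replicate 4, and 8 without DMKG replicates 3 and 4. MRPL51 lay 1.23 ± 0.15 below the sum (limma adjusted p = 1.2e-07), MRPL13 0.82 ± 0.16 below (limma adjusted p = 9.2e-05) and the combined row MRPS28 // TPD52 0.92 ± 0.12 below (limma adjusted p = 1.7e-07).

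The 4 called members furthest above the sum had fallen with DMKG alone. The sum contains the DMKG change, so a fall with DMKG lowers the sum and by itself places a member higher above it. This overlap is therefore partly built into the ranking and is not a separate result. MRPS31 measured 1667, 1473, 1529 and 1162 in B87+DMKG, against 665.3 to 918.7 with DMKG and 1074 to 1587 with B87, and lay above the sum at 0.91 ± 0.21 (limma adjusted p = 6.0e-04). MRPS17 measured 1718, 2210.5, 1501 and 1472 against 884.1 to 1024 with DMKG, at 0.87 ± 0.18 (limma adjusted p = 1.9e-04). MRPS11 measured 3857, 3933, 3981 and 3690.1 against 2081 to 2498 with DMKG, at 0.70 ± 0.13 (limma adjusted p = 5.9e-05). MRPL49 measured 6068, 6552, 6896 and 6691, within or above the Control range, at 0.68 ± 0.08 (limma adjusted p = 6.9e-08).

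Nutlin-3 alone gave 20 higher and 14 lower members, where 39.1% of all rows were called (18.5% higher, 20.7% lower); with equal totals the balance turned to 11 higher and 28 lower, as all rows moved to 12.6% higher and 28.7% lower, and quantile normalization gave 19 and 19 (18.3% and 20.9% of all rows). MRPS21 measured 13405, 17177 and 17870.1 in the 3 Nutlin-3 libraries and 8017 to 10313 in Control, at 0.80 ± 0.11 (limma adjusted p = 1.1e-06). MRPS17 measured 1749.5, 2596 and 2532, at 0.80 ± 0.14 (limma adjusted p = 2.6e-05), and MRPL37 measured 11786, 15056 and 14796, at 0.55 ± 0.11 (limma adjusted p = 2.3e-04). Replicate 1 was the lowest of the 3 Nutlin-3 libraries for each of these genes, and still above every control.

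The falls with Nutlin-3 included MRPL12, which binds the mitochondrial RNA polymerase POLRMT as well as the ribosome. MRPL12 measured 912.6, 764.1 and 669.1 against 1180.3, 1333, 1188 and 1293 in Control, without overlap, at -0.68 ± 0.11 (limma adjusted p = 6.5e-06). POLRMT itself measured 1634.5, 982.2 and 1088.3 against 1532.7 to 1893.5 in Control, with overlap, at -0.57 ± 0.15 (limma adjusted p = 0.00276). MRPL1 measured 1129.9, 973.4 and 979.6 against 1836 to 2013, at -0.90 ± 0.13 (limma adjusted p = 1.7e-06). MRPS12, a protein of the decoding region, gave 5092, 3379 and 3206 against 4699.7, 6133, 5704 and 5273, with overlap, at -0.51 ± 0.14 (limma adjusted p = 0.00456), a call that was lost without Nutlin-3 replicate 3 (limma adjusted p = 0.059).

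With Rita alone 26 members were higher and 9 lower, where 25.8% of all rows were higher, 26.3% lower and 52.1% called in all. The 9 falls became 6 or 7 with any 1 library left out, and 6 without a filter on low values (11.3% of all rows). With equal totals the balance turned to 15 higher and 21 lower, as all rows moved to 15.9% higher and 35.6% lower. The member median was 0.16 against 0.03 for all rows, and with equal totals -0.02 against -0.15, since that scaling moved the median of all rows. MRPL58, the large subunit protein with peptidyl-tRNA hydrolase activity that frees stalled ribosomes, measured 7494, 7751, 8055 and 9707 against 4342, 5380.1, 4683 and 4438 in Control, at 0.81 ± 0.08 (limma adjusted p = 1.4e-09). MRPL32, known for its maturation by the m-AAA protease in mitochondria, measured 8079, 8549, 8698 and 9627 against 5211, 5514, 5171 and 4974, at 0.74 ± 0.07 (limma adjusted p = 2.9e-10). Neither gene's groups overlapped.

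The pseudogene row MRPS31P5 was also called higher with Rita (0.71 ± 0.28, limma adjusted p = 0.0326), with overlapping groups, a call lost without Control replicate 1 or 3 or without Rita replicate 1 or 4 (largest adjusted p = 0.152). It shares sequence with MRPS31, so its reads are uncertain. Lower with Rita were MRPL50, at 2046, 2109, 2109 and 2399.5 against 2588 to 2731 in Control (-0.31 ± 0.09, limma adjusted p = 0.00568), and the combined row MRPS28 // TPD52 (-0.49 ± 0.08, limma adjusted p = 9.2e-06). MRPS31 was called lower (-0.35 ± 0.15, limma adjusted p = 0.0491), but 1 library, Rita replicate 4, overlapped Control at the last of the values 822.6, 840.4, 848.9 and 1386, and the call was lost without Rita replicate 1, 2 or 3 or without any single control (largest adjusted p = 0.191).

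When Nutlin-3 or Rita was given with B87+DMKG, most called members moved up from the B87+DMKG level. Nutlin-3 raised 45 members and lowered 5 relative to B87+DMKG, where 58.9% of all rows were called (26.5% higher, 32.3% lower), and with equal totals the counts were 34 and 11 (18.7% and 40% of all rows). Rita raised 50 and lowered 4, where 67.3% of all rows were called (33.1% higher, 34.2% lower), and with equal totals the counts were 28 and 15 (21.6% and 44.6% of all rows). The member medians were 0.30 with Nutlin-3 and 0.33 with Rita, against -0.05 and 0.001 for all rows.

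MRPL51 was called in opposite directions with the 2 compounds. It measured 1458, 1148, 1547 and 1103 in B87+DMKG+Nutlin-3, below every B87+DMKG library (2404 to 2917), at -1.03 ± 0.11 (limma adjusted p = 2.7e-09) relative to B87+DMKG and -2.42 ± 0.11 (limma adjusted p = 2.8e-18) relative to Control. In B87+DMKG+Rita it measured 7187, 7219, 7596 and 8106, above every B87+DMKG library, at 1.5 ± 0.11 (limma adjusted p = 4.1e-13). That Rita level overlapped Control (0.11, limma adjusted p = 0.402). Nutlin-3 alone gave 8016, 9752 and 8579, so the low level was not seen with Nutlin-3 by itself. The call for the small rise with Nutlin-3 alone (0.33 ± 0.12, limma adjusted p = 0.0259) was lost without Control replicate 4, without Nutlin-3 replicate 2 or 3, and with quantile normalization or equal totals (largest adjusted p = 0.151). The 2 triple treatments were not tested against each other, and their MRPL51 ranges do not overlap.

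MRPS23 rose with Rita and had no called change with Nutlin-3. It stood at 3211, 2805, 3061 and 2885 with Nutlin-3 added, overlapping B87+DMKG (-0.04, limma adjusted p = 0.656), and at 5963, 5865, 6344 and 6054 with Rita added, at 0.98 ± 0.07 (limma adjusted p = 1.2e-12). MRPL1 instead rose with both, to 1548, 1679.9, 1569 and 1565 with Nutlin-3 (0.98 ± 0.12, limma adjusted p = 3.6e-08) and to 1530.3, 1550.0, 1715 and 1465 with Rita (0.96 ± 0.12, limma adjusted p = 2.9e-08), all above every B87+DMKG library and below every control. MRPS36 also rose with both, to 1984 to 2238 with Nutlin-3 (0.65 ± 0.12, limma adjusted p = 1.8e-05) and 2088 to 2148 with Rita (0.65 ± 0.12, limma adjusted p = 1.2e-05), levels within or near the Control range of 2108 to 2213.

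MRPS22 and MRPS5, of the small subunit, were low in the Nutlin-3 triple treatment without having fallen in B87+DMKG. MRPS22, mutated in inherited respiratory chain deficiencies, measured 1473, 1304, 1389.5 and 1487 in B87+DMKG+Nutlin-3, 3436, 3585, 2647 and 2332 in B87+DMKG and 2935, 3162, 3045 and 2954 in Control. It lay below all of these at -1.06 ± 0.12 (limma adjusted p = 6.8e-09) relative to B87+DMKG and -1.10 ± 0.12 (limma adjusted p = 2.2e-09) relative to Control, while Nutlin-3 alone raised it (0.50 ± 0.13, limma adjusted p = 0.00205). Its row (chr3:138724648-139076065, hg19) spans 351418 bases, the longest of the members, and reads of other transcripts within that span may be counted in it. MRPS5 measured 4852, 4048, 4543 and 4359.8, against 8064, 8294, 7149 and 6767 in B87+DMKG and 6283, 6371, 5898 and 5966 in Control, at -0.76 ± 0.08 (limma adjusted p = 1.6e-09) and -0.46 ± 0.08 (limma adjusted p = 7.4e-06). With Rita added MRPS5 gave 8506 to 9315, above every control (0.54 ± 0.08, limma adjusted p = 6.3e-07).

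Relative to Control, 39 members were higher and 14 lower in B87+DMKG+Nutlin-3 (28.3% and 29.7% of all rows, 58% in either direction), and 22 and 21 with equal totals (18.7% and 36.6% of all rows). For B87+DMKG+Rita the counts were 30 and 7 (29.4% and 30.7% of all rows, 60.1% in either direction), and with equal totals the balance turned to 14 and 30, a scaling under which all rows stood at 16.7% higher and 43.2% lower. The 7 falls with Rita became 3 without Control replicate 4 and 4 without any 1 of the B87+DMKG+Rita libraries. MRPL41, a large subunit protein also described as binding BCL2 and p53, measured 11727, 9166, 11738 and 8521 with Nutlin-3 and 8245, 9959.7, 10466 and 11686 with Rita, above all controls (4399.5, 6653, 6457 and 5927), at 0.82 ± 0.17 (limma adjusted p = 1.4e-04) and 0.79 ± 0.17 (limma adjusted p = 1.9e-04). MRPL12 rose in both, with ranges of 1607 to 1855 and 1571 to 1762 against 1180.3 to 1333 in Control, at 0.44 ± 0.10 (limma adjusted p = 3.2e-04) and 0.42 ± 0.10 (limma adjusted p = 4.8e-04); the Rita call was lost with equal totals (limma adjusted p = 0.166).

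MRPS2 of the small subunit measured 5623, 5592, 6320.0 and 5537 in B87+DMKG+Nutlin-3 against 2843, 3353, 3461 and 3568 in Control, without overlap, at 0.81 ± 0.10 (limma adjusted p = 3.1e-08). MRPL58 was above all controls in both triple treatments, at 6781 to 8263 with Nutlin-3 (0.65 ± 0.08, limma adjusted p = 5.6e-08) and 7678 to 8354 with Rita (0.79 ± 0.08, limma adjusted p = 1.2e-09). MRPL24 measured 11369, 11431, 10901 and 12032 with Rita against 7484, 8071, 6840.0 and 6688, at 0.66 ± 0.09 (limma adjusted p = 2.2e-07). MRPL50 was the exception at the low end in B87+DMKG+Rita, at 1575, 1713, 1672 and 1606 against 2588 to 2731 (-0.71 ± 0.09, limma adjusted p = 1.0e-07), followed by the combined row MRPS6 // SLC5A3 (-0.49 ± 0.06, limma adjusted p = 1.8e-08) and by MRPL1 (-0.29 ± 0.12, limma adjusted p = 0.0342). The MRPL1 call against Control was lost without Control replicate 1 or 4 or without B87+DMKG+Rita replicate 1, 2 or 4.

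Relative to B87+DMKG, MRPL46 rose to 2047, 1847, 2089.7 and 1813 with Nutlin-3 from 1005, 915.9, 1225 and 1200.4, at 0.85 ± 0.11 (limma adjusted p = 1.3e-07). The 3 deepest falls with Rita relative to B87+DMKG were MRPS31, at 912.2 to 1035 against 1162 to 1667 (-0.57 ± 0.15, limma adjusted p = 0.0011), MRPL50 (-0.42 ± 0.09, limma adjusted p = 1.7e-04) and MRPS25, at 2641 to 2886 against 3279 to 3959 (-0.38 ± 0.07, limma adjusted p = 5.1e-05). In each of the 3 the groups did not overlap.

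**Figure D3:**
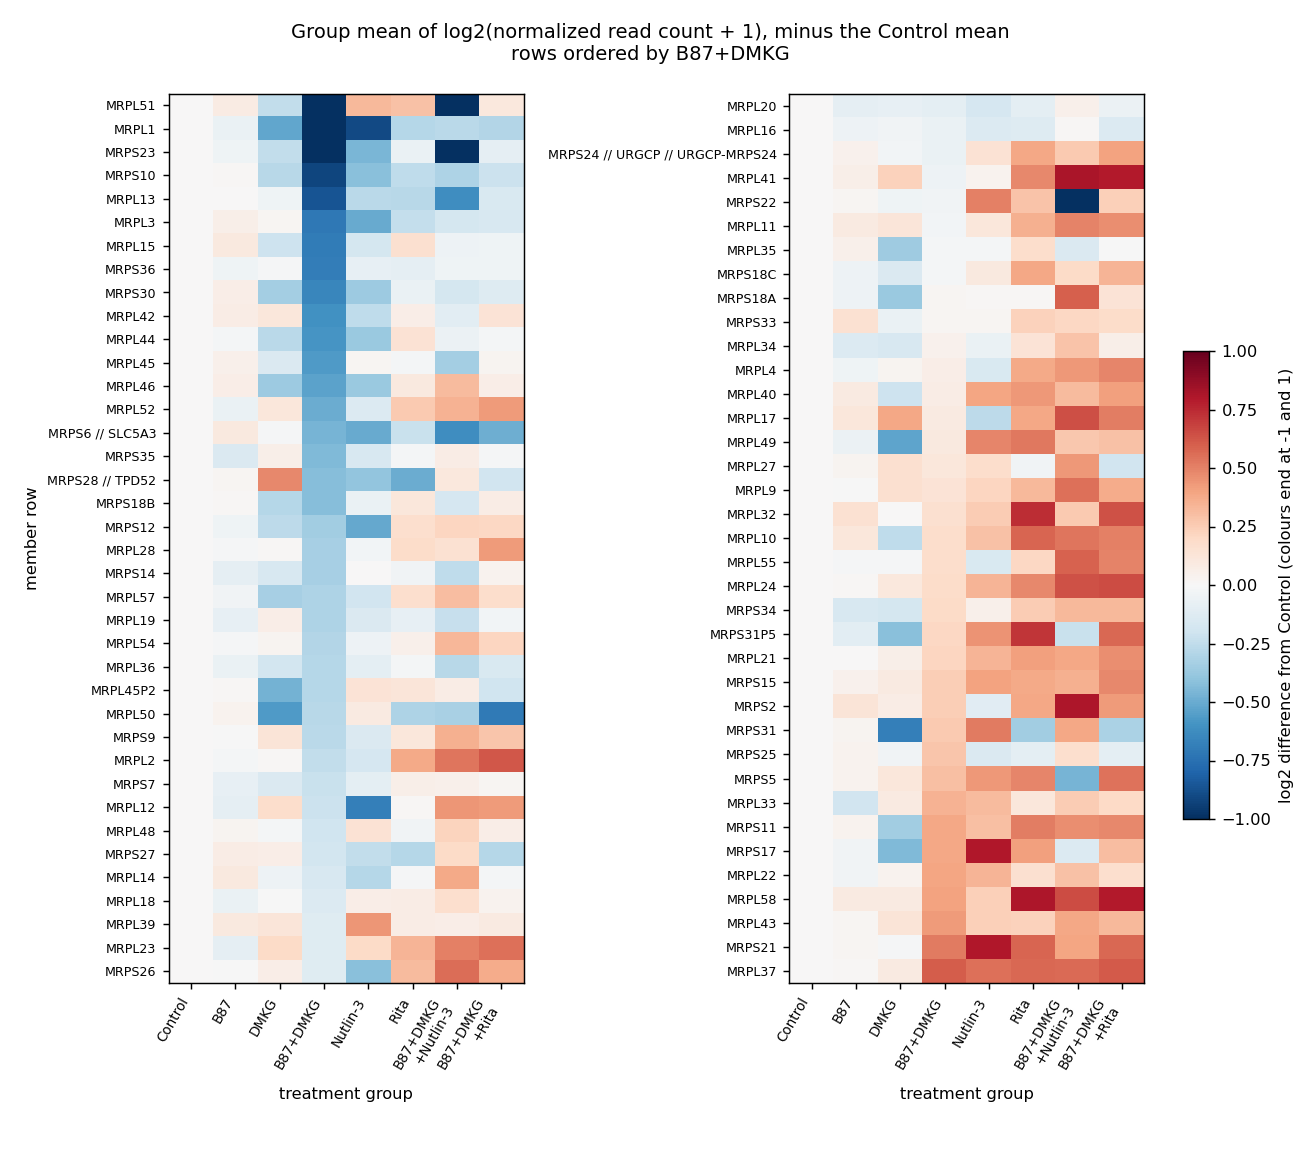
Difference from the Control mean in log2(normalized read count + 1), as colour, for the 75 tested rows (vertical, ordered by B87+DMKG) in the 8 groups (horizontal). Colours end at -1 and 1, so MRPL51 in B87+DMKG+Nutlin-3 lies beyond the scale. The B87 column stays close to Control, and the column of B87+DMKG holds the lowest group mean of 29 members, a count not made over all rows.

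By group means, 29 of the 75 members were lowest in B87+DMKG and 17 in DMKG, while 23 were highest in B87+DMKG+Nutlin-3, 14 in Rita and 14 in B87+DMKG+Rita. The same counts were not made over all tested rows, so they cannot be read as particular to the members. Against Control, 61% of all rows were called in B87+DMKG and 58% in B87+DMKG+Nutlin-3. As a share of all normalized reads the members summed to 0.614 to 0.657% in Control, 0.538 to 0.609% in DMKG and 0.578 to 0.624% in B87+DMKG. Rita gave 0.643 to 0.660%, B87+DMKG+Nutlin-3 gave 0.624 to 0.678% and B87+DMKG+Rita gave 0.614 to 0.637%. On this scale the DMKG libraries lay below Control, whereas the Rita and triple-treated ranges overlapped it. The rows most like the mean member profile over the 8 group means were POLR2I and ZNRD1, subunits of RNA polymerases II and I (Pearson's r of 0.992 and 0.991), EPHX1 (0.984), PGRMC1 (0.976) and GPX1 (0.975); these are descriptions over 8 points that share their libraries.

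The 3 MRPS18 paralogs, of which MRPS18A sits in the large subunit, did not move as a set. MRPS18A fell with DMKG at -0.37 ± 0.09 (limma adjusted p = 0.00108), a call lost without DMKG replicates 3 and 4 (limma adjusted p = 0.14). It measured 3273, 3592, 3846 and 3926 in B87+DMKG against 3569.6, 3959, 3380.0 and 3529 in Control (0.02, limma adjusted p = 0.867). With Nutlin-3 added it measured 5825, 5099, 5804 and 5103, at 0.58 ± 0.09 (limma adjusted p = 2.2e-06) relative to B87+DMKG and 0.60 ± 0.09 (limma adjusted p = 1.1e-06) relative to Control. MRPS18B measured 4319, 4844, 5363 and 5528 in B87+DMKG against 6827, 7372, 6173 and 6422, at -0.42 ± 0.09 (limma adjusted p = 1.2e-04). With Nutlin-3 added MRPS18B measured 6285, 5750.1, 6349 and 5501, called higher relative to B87+DMKG with overlapping groups (0.26 ± 0.09, limma adjusted p = 0.0128) and not called relative to Control (-0.17, limma adjusted p = 0.106). The call relative to B87+DMKG was lost without B87+DMKG replicate 1, or 1 and 2, and with quantile normalization or equal totals (largest adjusted p = 0.285). MRPS18C measured 2249, 2296, 1570.0 and 1292 in B87+DMKG, with replicates 1 and 2 above the controls (1722, 2024, 1821 and 1733) and replicates 3 and 4 below them (-0.02, limma adjusted p = 0.919).

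12 pairs have a member that starts within 1000 bases of a gene on the other strand, so that 1 stretch of DNA lies before both starts. In B87+DMKG both genes were called in 6 pairs, in the same direction in 1 and in opposite directions in 5. With DMKG both were called in 4 pairs, all 4 in the same direction. Of all rows 61% were called in B87+DMKG and 41.4% with DMKG. Other comparisons were mixed, with 5 pairs in the same direction and 1 opposite in B87+DMKG+Nutlin-3 against Control, and 2 and 2 with Rita. Pearson's r between the 2 fold changes over the 12 pairs was -0.015 in B87+DMKG and 0.241 with DMKG. MRPL46 and MRPS11 are both members, and their stretches are printed above. MRPL46 fell from 1477, 1657, 1659 and 1478 in Control to 1005, 915.9, 1225 and 1200.4 in B87+DMKG (-0.54 ± 0.11, limma adjusted p = 1.0e-04), whereas MRPS11 rose from 2947, 3411, 2742 and 2796 to 3857, 3933, 3981 and 3690.1 (0.38 ± 0.09, limma adjusted p = 7.4e-04). Neither comparison had overlapping groups. With DMKG alone both fell, MRPL46 by 0.36 ± 0.11 (limma adjusted p = 0.00863) and MRPS11 by 0.35 ± 0.09 (limma adjusted p = 0.00292), and both calls were lost without DMKG replicates 3 and 4 (adjusted p = 0.401 and 0.0732), that of MRPL46 also without replicate 4 alone.

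MRPS18B and PPP1R10, a regulatory subunit of protein phosphatase 1, start 597 bases apart. With DMKG the log2 fold change was -0.29 for MRPS18B (its call lost without DMKG replicate 4, or 3 and 4, with an adjusted p up to 0.357) and -4.27 for PPP1R10 (limma adjusted p = 3.1e-21), and in B87+DMKG it was -0.42 for MRPS18B and 0.78 for PPP1R10 (limma adjusted p = 4.6e-06). MRPL51 and NCAPD2, a condensin subunit, start 840 bases apart. In B87+DMKG MRPL51 gave -1.39 and NCAPD2 -0.09 (limma adjusted p = 0.105), so the change in MRPL51 was not matched by its neighbour. MRPL49 starts 49 bases from FAU, a cytosolic ribosomal protein gene, and with DMKG the values were -0.52 for MRPL49 and 0.11 for FAU (limma adjusted p = 0.463).

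**Figure D4:**
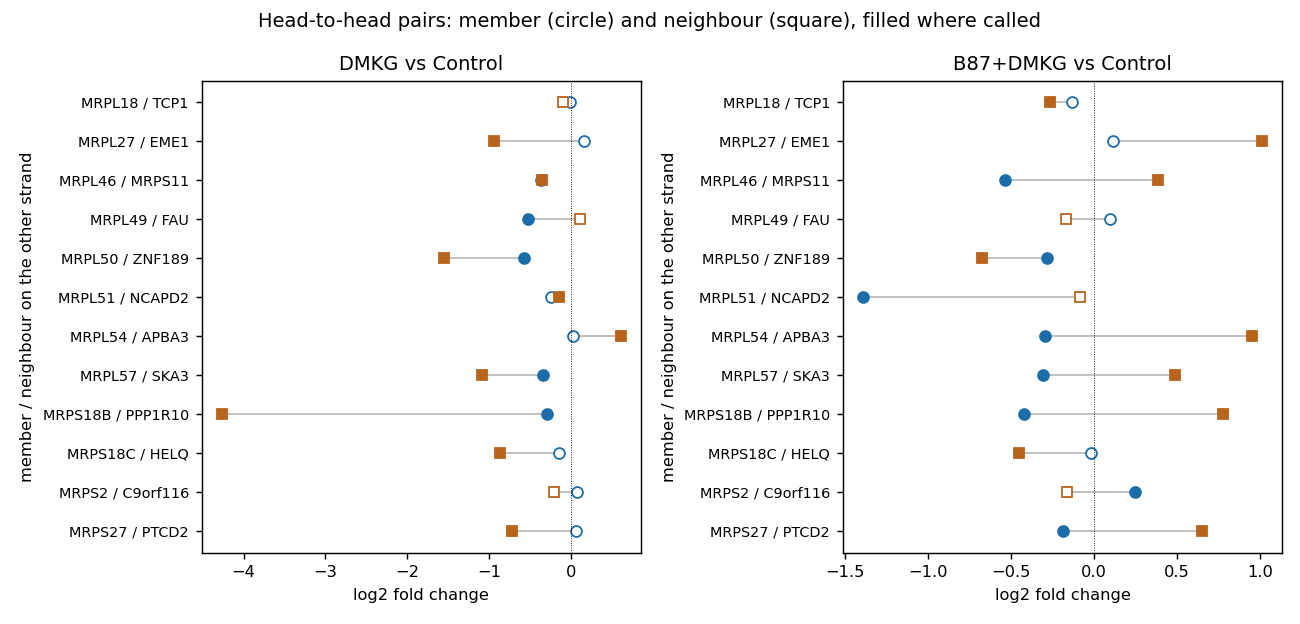
Log2 fold change against Control (horizontal axis) of 12 pairs of genes that start within 1000 bases of each other on opposite strands (vertical axis), with DMKG on the left and B87+DMKG on the right. Circles are the members and squares their neighbours, filled where called by limma. The widest gap is MRPS18B against PPP1R10 with DMKG (-0.29 and -4.27), and MRPL46 and MRPS11 lie on opposite sides of 0 in B87+DMKG.

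Sorted by the length of the row's span, the shortest class (23 members, 0.7 to 5.42 kb) had 9 rises and 0 falls with Rita and a median of 0.25. Of all rows 25.8% were higher and 26.3% lower with Rita. The longest class (23 members, 14.04 to 351.42 kb) had 5 of each and a median of 0.01. In B87+DMKG+Rita the medians were 0.31 and 0.09, whereas with Nutlin-3 they were -0.07 and 0.01. Spearman's rho between span and the Rita fold change was -0.35 over the 70 single-gene members, the furthest from 0 of the 10 comparisons. It was -0.29 in B87+DMKG+Rita and -0.26 in B87+DMKG+Nutlin-3 against Control, -0.18 for the combination beyond the sum, and between -0.11 and 0.12 in the other 6, with 0.009 for Nutlin-3. Each is a description across genes that share their libraries. The relation to span was not computed over all tested rows, so whether it is particular to the members was not tested.

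The closest relatives, the ribosomal proteins of the cytosol, were compared in the same fit. Of 67 tested, 0 were called with B87, 1 fell and 9 rose with DMKG, and 27 fell and 12 rose in B87+DMKG. With Rita 48 rose and none of the 67 fell, and in B87+DMKG+Rita 62 rose and 1 fell. The Nutlin-3 groups shared this, with 32 rises and 5 falls for Nutlin-3 and 48 and 2 in B87+DMKG+Nutlin-3. All rows had the shares given above for each comparison. These counts were not recomputed with equal totals, which moved the median of all rows to -0.15 with Rita and -0.25 in B87+DMKG+Rita. With Nutlin-3 and in B87+DMKG+Nutlin-3 that median was -0.136 and -0.132. Their share of all normalized reads was 7.45 to 8.5% in Control. It was 9.18 to 9.35% in B87+DMKG+Rita, 8.55 to 9.38% with Rita and 8.75 to 8.997% with Nutlin-3, all without overlap with Control. In B87+DMKG+Nutlin-3 it was 8.43 to 9.405%, which overlapped Control. The shares of the mitochondrial family overlapped Control in each of these groups. 5 proteins of the mitochondrial ribosome that carry other symbols (DAP3, CHCHD1, AURKAIP1, PTCD3 and GADD45GIP1) had 0 rises and 1 fall in B87+DMKG, that of CHCHD1, at 1613, 1656, 1646 and 1730.4 against 2347, 2665, 2579 and 2369 in Control (-0.58 ± 0.08, limma adjusted p = 5.4e-07).

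The genes that work with the mitochondrial ribosome were taken as lists, to be read against all tested rows, of which 30.8% were lower and 30.2% higher in B87+DMKG and 21.8% lower and 19.6% higher with DMKG. Of 7 genes for mitochondrial transcription and RNA stability, 4 fell and 1 rose in B87+DMKG, and 4 fell and 0 rose with DMKG. TFAM, which packages mitochondrial DNA and opens its promoters, measured 2739.8, 2670.5, 2358 and 2030.3 in B87+DMKG against 7780.1, 7040.2, 8488 and 8834 in Control, at -1.72 ± 0.09 (limma adjusted p = 1.3e-15). TFB2M, the transcription factor that melts the promoter for POLRMT, measured 707, 784, 746.7 and 585.6 against 2636, 2547, 2696 and 2573, at -1.90 ± 0.11 (limma adjusted p = 1.3e-14). LRPPRC, which stabilizes mitochondrial mRNAs, gave -0.81 ± 0.09 (limma adjusted p = 4.7e-09), and POLRMT itself was called higher (0.32 ± 0.14, limma adjusted p = 0.0461), with overlapping groups. The groups did not overlap for TFAM, TFB2M or LRPPRC.

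Of 20 assembly and rRNA modification genes 12 fell and 3 rose in B87+DMKG, where 30.8% of all rows fell and 30.2% rose, the background also for the other 2 lists here. DDX28, a helicase of large subunit assembly, measured 916.2, 1019, 1268 and 1372 against 3005, 3393, 3237 and 3246 (-1.51 ± 0.15, limma adjusted p = 1.1e-09), and TFB1M, the methyltransferase of the small subunit RNA, measured 145.4, 176, 175.5 and 157.5 against 379.2, 355.9, 331.8 and 390.4 (-1.15 ± 0.13, limma adjusted p = 1.0e-08). FASTKD2 fell (-0.83 ± 0.10, limma adjusted p = 2.4e-08), and MPV17L2 rose (0.65 ± 0.07, limma adjusted p = 1.2e-09). Of 13 translation factors 7 fell and 0 rose, the deepest being the elongation factor GUF1 at 708.2, 704, 636.2 and 440.2 against 1855, 1530.2, 1690.0 and 1761 (-1.48 ± 0.13, limma adjusted p = 1.0e-10). Of 8 regulators of nuclear genes for mitochondria 5 fell and 2 rose, among them NRF1 (-0.56 ± 0.08, limma adjusted p = 5.1e-07) and GABPA (-0.56 ± 0.14, limma adjusted p = 0.0012), which fell, and PPARGC1A (1.08 ± 0.22, limma adjusted p = 1.3e-04), which rose from a mean of 136 to 300.4 normalized reads.

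In the triple treatments these genes stood at different levels. Against Control, with Nutlin-3 added, TFB2M measured 391.5, 369.7, 352.9 and 314.5 (-2.87 ± 0.11, limma adjusted p = 1.2e-19), GUF1 336, 440.3, 291.9 and 413.9 (-2.22 ± 0.13, limma adjusted p = 4.8e-15) and TFB1M 114, 115.8, 113.6 and 144 (-1.58 ± 0.13, limma adjusted p = 1.1e-11). With Rita added, GUF1 measured 1496, 1507, 1419.6 and 1265 (-0.27, limma adjusted p = 0.0876), TFB1M 262.9, 272.8, 269 and 279.9 (-0.42 ± 0.13, limma adjusted p = 0.00667) and TFB2M 1317, 1297, 1275 and 1348 (-0.996 ± 0.11, limma adjusted p = 7.4e-09). TFAM was at 3109.7 to 3452 with Nutlin-3 (-1.28 ± 0.09, limma adjusted p = 3.3e-13) and at 6855 to 7197 with Rita (-0.18, limma adjusted p = 0.0973). For these 4 genes and for MRPL51, every Nutlin-3 library lay below every Rita library, and the 2 triple treatments were not tested against each other. DDX28 differed: it was at 2441 to 2834 with Nutlin-3 and 2671 to 2943 with Rita, both below Control without being called. FASTKD2, NRF1 and PPARGC1A went the other way, with every Nutlin-3 library above every Rita library. FASTKD2 measured 2192 to 2337 with Nutlin-3 added and 846.9 to 976.1 with Rita added, and NRF1 826.3 to 881.3 and 304 to 334.7. Some of these genes were also below every control with a single compound. Rita alone gave NRF1 446.4 to 499.8, PPARGC1A 25 to 56.5, FASTKD2 876.9 to 1232.5 and TFB2M 1817.7 to 2170.1. Nutlin-3 alone gave FASTKD2 950.6 to 1115.4, TFAM 4503.4 to 4702.5 and TFB2M 1486.9 to 1760.8. For GUF1 and TFB1M the range with either compound alone overlapped Control. The genes named here were chosen after their values were seen, and the share of all rows that separated in this way was not counted.

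**Figure D5:**
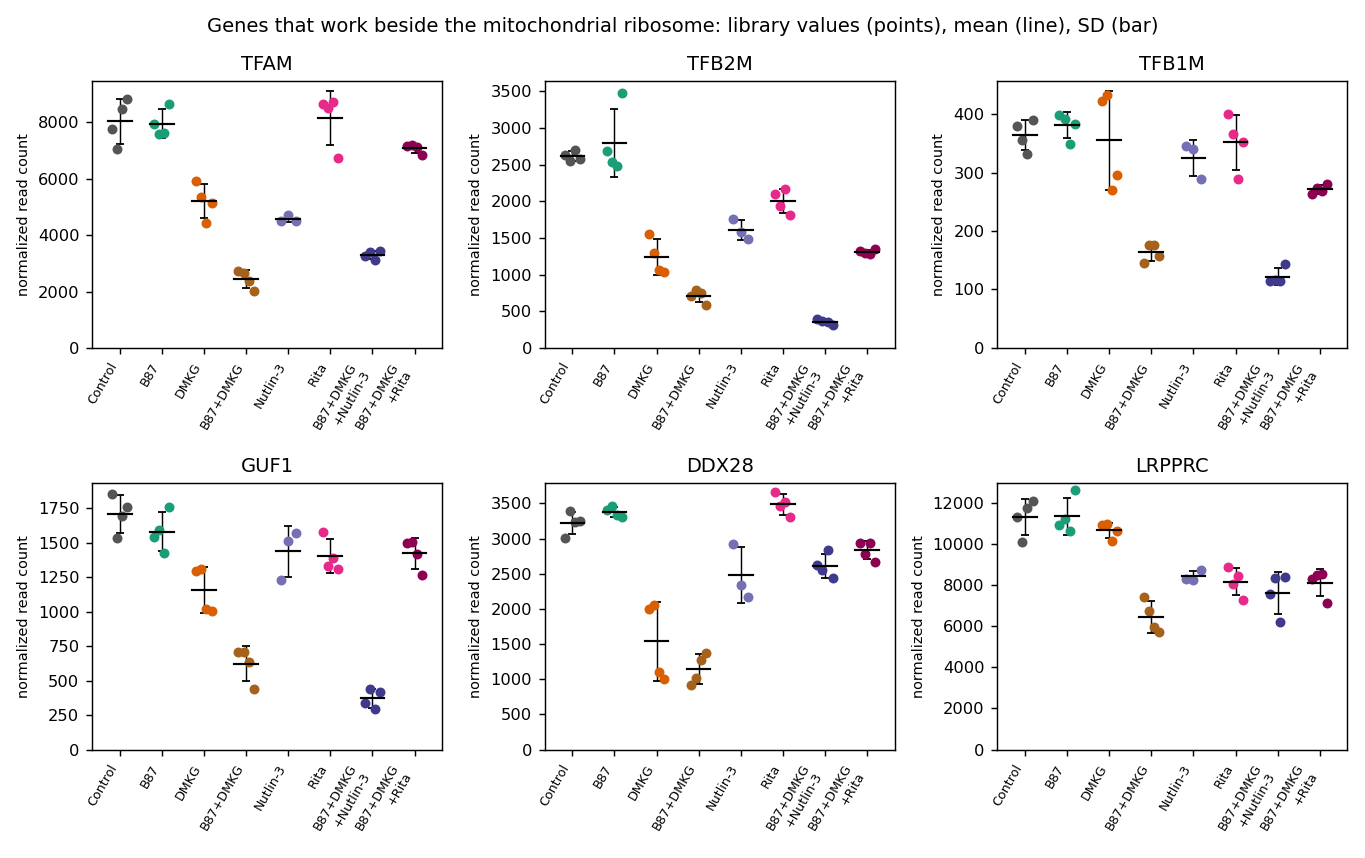
Normalized read count (vertical axis, from 0) of 6 genes for mitochondrial transcription, ribosome assembly and translation in each library of the 8 groups (horizontal axis), with points for libraries, a line for the mean and a bar for the standard deviation. TFAM lies at 2030.3 to 2739.8 in B87+DMKG and 7040.2 to 8834 in Control, and TFB2M, TFB1M and GUF1 are lower in every library of B87+DMKG+Nutlin-3 than in any library of B87+DMKG+Rita. For DDX28 and LRPPRC the ranges of these 2 groups overlap.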

How the data were processed

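Poly(A) RNA of 31 H460 libraries was sequenced from a TruSeq stranded mRNA kit, per the labels' protocols. The deposited table holds the authors' normalized signal per gene (from the values themselves, whole reads divided by 1 factor per library). The submitters' processing notes name STAR 2.4.0, FastQC, Picard, SAMtools and DESeq2, the latter 4 without versions, and the build mm10, whereas the table's gene positions are those of human hg19. Whether counting used strand is not given in the sources used here.

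Of the 690132 values above 0, 100% were whole multiples of 1 read's worth (within 0.1 of a step), which gave 33.4 to 82.5 M reads per library. Groups came from the labels. The main test was limma 3.58.1 (R 4.3.3) with an intensity trend on log2(value + 1), in 1 fit of all 31 libraries by group, over 16259 rows with a mean of at least 10. Fold changes on this scale understate changes of low genes. P-values were Benjamini-Hochberg adjusted over all rows in each of 10 comparisons, with a threshold of 0.05. Alternatives were other pseudocounts, filters and scalings, fewer groups, count tests on the recovered reads (DESeq2 1.42.0, edgeR 4.0.16), a block for the replicate number, and libraries left out. Leaving out pairs of B87+DMKG replicates was chosen after seeing the data. The fit was tested on simulated data.

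The members and the gene lists were chosen with earlier results of these data known. Named genes were, in each comparison, the 3 called members with the highest and the 3 with the lowest fold change among those with a mean of at least 50, with MRPS36, MRPS30 and the MRPS18 genes added, and other genes named were chosen after their values were seen.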

Additional observations from a re-analysis of the deposited data

Results flagged for a closer look

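In 29 of 525 groups of 4 libraries (75 members in 7 groups, 5.52%) 1 library lay so far from the other 3 that its gap to them took up most of the group's whole range (Dixon's test). Chance gives this in about 1 in 20 groups. In B87 replicate 4 the members standing apart were MRPL23 at 2660.0, MRPL39 at 3578, MRPL41 at 4283, MRPS2 at 2837, MRPS25 at 2760.0, MRPS26 at 3940.0, MRPS28 // TPD52 at 10858 and MRPS34 at 9394 normalized reads. In Rita replicate 4 the members standing apart were MRPL3 at 7406, MRPL37 at 17365, MRPS17 at 2064, MRPS22 at 4684 and MRPS31 at 1385 normalized reads. In DMKG replicate 4 the members standing apart were MRPL11 at 3814, MRPL17 at 6977 and MRPL43 at 4927 normalized reads. In Rita replicate 1 the members standing apart were MRPL11 at 4928, MRPL14 at 2707 and MRPS6 // SLC5A3 at 4134 normalized reads. In B87+DMKG+Rita replicate 1 the members standing apart were MRPL34 at 3647, MRPL58 at 7678 and MRPS12 at 5932 normalized reads. In B87+DMKG replicate 2 the members standing apart were MRPL21 at 5833 and MRPS9 at 3326 normalized reads. Libraries with 1 such member gave MRPL1 at 1680.0 in B87+DMKG+Nutlin-3 replicate 2, MRPL44 at 2963 in B87 replicate 1, MRPS2 at 6320.0 in B87+DMKG+Nutlin-3 replicate 3, MRPS26 at 4465 in Control replicate 1 and MRPS36 at 2148 in B87+DMKG+Rita replicate 4. B87 replicate 4 was also the shallowest library.

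The effect of B87 differed with and without DMKG for 35 of the 75 members by limma's test of that difference. On the log2 scale the effect with DMKG minus that without was 0.913 for MRPS31, 0.867 for MRPS17 and 0.703 for MRPS11. It was -1.227 for MRPL51, -0.921 for the combined row MRPS28 // TPD52 and -0.821 for MRPL13.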

How the results depend on the processing

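Of 244 recomputed counts of called members, 228 stayed within 1.5 times the main count and 16 did not, leaving out single libraries aside. The 228 include the B87 counts, which were 0 in every setting, and the 27 DMKG falls with equal totals, against 18. Where a count moved, the cause was not tested. Equal totals gave 11 higher and 28 lower with Nutlin-3, 15 and 21 with Rita, 22 higher in B87+DMKG+Nutlin-3, and 14 and 30 in B87+DMKG+Rita against Control, and, against B87+DMKG, 11 lower with Nutlin-3 and 28 higher and 15 lower with Rita. Quantile normalization gave 9 lower in B87+DMKG+Nutlin-3 against Control and 10 lower with Rita against B87+DMKG. The falls in B87+DMKG+Rita numbered 3 without a filter, 13 with only the groups compared and 3 to 6 with 1 library left out. DMKG falls numbered 11 to 22 with 1 library left out and 5 without replicates 3 and 4, and members above the sum of B87 and DMKG 9 to 14 and 8. Against B87+DMKG with Rita, equal totals reversed MRPS15 (-0.009), MRPL9 (-0.009), MRPL49 (-0.047), MRPS5 (-0.002), MRPL39 (-0.033), MRPL18 (-0.07) and MRPS28 // TPD52 (-0.008), and leaving out B87+DMKG replicates 1 and 2 reversed MRPL55 (-0.01). Same-numbered replicates shared only a number: in 0 of 28 pairs of groups was every same-number correlation above 0.1 (-0.207 to 0.187). With the replicate block, B87+DMKG had 32 falls and 14 rises, DMKG 18 and 3, and Rita 8 and 25, and no count of called members moved by over 1.5 times. Depth limits members with low values, such as MRPS31P5.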
